A study of Mus musculus with 8 samples.

Results

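The collagen genes are the 42 gene symbols, of 18533 in the count files, that consist of Col, a type number, the letter a, and a chain number, with Col2a1 left out of the set. They were sorted by structural class into 10 fibrillar genes, 6 basement membrane genes of type IV, 6 Col6 chains, 8 FACIT genes (fibril-associated collagens with interrupted triple helices), 2 multiplexins, and 10 others. The samples were MASMCs, which are primary smooth muscle cells cultured from the mouse aorta, from wild-type mice (WT, C57BL/6J, n = 4) and from mice lacking Hint1 in all cells (Hint1-/-, n = 4). Hint1 encodes a histidine triad nucleotide-binding protein. All 8 samples were treated with PDGF-BB, a growth factor that drives smooth muscle cells to divide and migrate, at 20 ng/ml for 24 hours, so no untreated cells stand beside them. The mice were male and 4 to 6 weeks old, and the adventitia and endothelium were taken off the aorta before cells were isolated with collagenase. The study states in general that littermates were compared, but it lists C57BL/6J and Hint1-/- mice from separate sources. It does not say that the mice of these samples were littermates. The labels do not say that the samples of a genotype came from separate mice or cultures, so p-values measure the spread between these samples, which may be technical.

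Collagens are secreted proteins of 3 chains wound into a triple helix. Fibrillar collagens assemble into the fibers that carry the load of the aortic wall, with types I and III as its main fibers and types V and XI inside them. Type IV forms the sheet-like network of the basement membrane that surrounds each smooth muscle cell, type VI forms beaded filaments close to it, FACIT collagens coat fibers, and multiplexins lie in basement membrane zones.

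Depth was even, with 20778077 to 20888041 estimated counts per sample and TMM library size factors between 0.993 and 1.01. Hint1, the targeted gene, had 2272, 2336, 2364, and 2301 counts in WT replicates 1 to 4 and 713, 748, 778, and 715 in Hint1-/- replicates 1 to 4, so each library went with its label, and the level that remained was 32.1% of WT. Libraries differed more between genotypes than within them, with a chi-square per gene of 12.4 to 18.1 for the 16 pairs between genotypes and 2.13 to 5.69 for the 12 pairs within one, so no library was a copy of another. Markers of several cell types moved with genotype. All 8 smooth muscle markers were detected, and their summed level was 1372 to 1484 CPM (counts scaled to a common library size) in WT and 1118 to 1203 CPM in Hint1-/- MASMCs. Acta2 alone made up 826 CPM of this sum in WT and 578 CPM in Hint1-/- MASMCs on average. By gene, 7 of the 8 were lower and 1 higher. Of 7 Schwann cell markers, 5 were lower (Sox10, Ngfr, Erbb3, Foxd3, and Cdh19), and the summed level of the 7 was 63.3 to 68.1 CPM in WT and 25.0 to 28.0 CPM in Hint1-/- MASMCs. The summed level of 9 fibroblast markers was 2729 to 2811 CPM in WT and 3556 to 3753 CPM in Hint1-/- MASMCs, of which Dcn alone made up 1112 and 1975 CPM on average. By gene, 4 of the 9 were higher and 5 lower, with a median log2 fold change of −0.03, and 3 rose and 1 fell with an adjusted p under 0.05. The 8 macrophage markers summed to 1886 to 2197 CPM and 1520 to 1613 CPM, the 8 chondrocyte markers found in the files to 19.0 to 21.9 CPM and 26.4 to 28.0 CPM, and the 10 endothelial markers to 8.22 to 10.9 CPM and 8.44 to 10.5 CPM. Lyz2 alone made up 1202 CPM of the macrophage sum in WT and 966 CPM in Hint1-/- MASMCs on average. Most of the chondrocyte sum was Sox9, at 17.9 CPM in WT and 24.9 CPM in Hint1-/- MASMCs on average. Only 3 chondrocyte markers had enough counts to test, of which 2 were higher and 1 lower. With an adjusted p under 0.05, 5 of 7 tested macrophage markers were lower and none of 7 tested endothelial markers moved. Over all genes tested, 21.5% had an adjusted p under 0.05. No listed marker was at 0 in every library. The part of these markers in the results on collagen genes was not tested, and in such bulk samples fewer cells of a type and less RNA per cell cannot be told apart.

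The start regions of the type IV genes are shown because the 6 genes lie as 3 head-to-head pairs, each read outward in opposite directions from neighboring start sites, and the values below are given by pair. In GENCODE M21 on GRCm38, the build called mm10 in the processing notes, the start sites of Col4a1 and Col4a2 on chromosome 8 lie 21 bases apart, so that the first 22 bases of these genes overlap. On chromosome 1 the start sites of Col4a4 and Col4a3 lie 72 bases apart, and on the X chromosome those of Col4a6 and Col4a5 lie 1309 bases apart. The promoter windows of these pairs are printed below as RefSeq gives them for GRCm38.p6, each running from 250 bases before the start of the named gene to 50 bases after it, on that gene's own strand. Capitals mark exact matches, on either strand, to 4 short motifs searched for: GCCNNNGGC for AP-2, GGGCGG for the GC box, CCAAT for the CCAAT box, and TATAAA for the TATA box. The AP-2 and GC box motifs can overlap each other.

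The window of Col4a1 (chr8:11312777-11313076, minus strand) holds the start site of Col4a2 at its base 272, and it overlaps the window of Col4a2 by 78 bases. The window of Col4a4 (chr1:82586800-82587099, minus strand) holds the start site of Col4a3 at its base 179. The windows of Col4a6 (chrX:141474027-141474326, minus strand) and Col4a5 (chrX:141475169-141475468, plus strand) do not overlap. Each is given 5′ to 3′.
Col4a1: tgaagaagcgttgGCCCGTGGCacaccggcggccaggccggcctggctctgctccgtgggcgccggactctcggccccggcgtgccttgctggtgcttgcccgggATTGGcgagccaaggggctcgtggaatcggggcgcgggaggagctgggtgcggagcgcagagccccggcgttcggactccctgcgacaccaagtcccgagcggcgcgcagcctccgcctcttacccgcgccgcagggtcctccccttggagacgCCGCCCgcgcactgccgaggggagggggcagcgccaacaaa
Col4a4: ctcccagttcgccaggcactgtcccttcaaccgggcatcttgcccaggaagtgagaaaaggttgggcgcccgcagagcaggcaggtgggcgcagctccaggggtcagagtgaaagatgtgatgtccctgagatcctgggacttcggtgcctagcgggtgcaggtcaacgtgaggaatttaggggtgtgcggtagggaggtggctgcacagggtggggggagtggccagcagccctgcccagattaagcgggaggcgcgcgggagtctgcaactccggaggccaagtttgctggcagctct
Col4a6: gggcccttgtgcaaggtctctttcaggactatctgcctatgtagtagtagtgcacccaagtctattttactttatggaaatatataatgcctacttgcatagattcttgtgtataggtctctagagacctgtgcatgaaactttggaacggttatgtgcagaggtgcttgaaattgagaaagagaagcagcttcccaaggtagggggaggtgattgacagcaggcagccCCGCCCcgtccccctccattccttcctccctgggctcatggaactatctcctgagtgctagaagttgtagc
Col4a5: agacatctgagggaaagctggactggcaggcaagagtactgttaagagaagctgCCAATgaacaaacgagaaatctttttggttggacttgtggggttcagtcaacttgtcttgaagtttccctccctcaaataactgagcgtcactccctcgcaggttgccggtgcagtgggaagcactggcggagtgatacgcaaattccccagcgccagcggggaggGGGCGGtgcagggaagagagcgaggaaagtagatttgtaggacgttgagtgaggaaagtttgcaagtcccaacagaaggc

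The Col4a1 window held 1 match each to the AP-2, GC box, and CCAAT motifs, the Col4a6 window 1 to the GC box, the Col4a5 window 1 each to the GC box and CCAAT motifs, and the Col4a4 window none. In all, 36 windows of 34 collagen genes were listed. Of these, 63.9% held a GC box, against 35.7% of the 32851 windows of all genes, and 22.2% held the AP-2 motif, against 16.6%. The CCAAT box was found in 33.3% of collagen windows and 37.4% of all windows, and the TATA box in 13.9% and 13.6%. A match is a string of letters and does not show that a factor binds there, and these windows were not selected by their expression.

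The question of the comparison was which collagen genes differ between Hint1-/- and WT MASMCs under PDGF-BB. Abundant collagen genes moved by small amounts in both directions, and the changes over 1.5-fold were found mostly in genes of low or middle level. A gene was called changed at an adjusted p under 0.05 from edgeR's quasi-likelihood test, adjusted over all genes tested, together with a fold change over 1.5. After the filter on low counts, 35 of the 42 collagen genes were tested, and 7 of them (20%) were changed, against 2.83% of all 13535 genes tested. Col11a1 and Col24a1 rose, and Col15a1, Col27a1, Col6a3, Col6a4, and Col19a1 fell. Col19a1 entered the test mainly through its WT samples. With at least 10 counts asked of every sample, which removed Col19a1, 6 of 31 collagen genes were changed, against 310 of 12977 genes. The calls of Col6a4 and Col19a1 were each lost in 6 of the alternative analyses described below. Without the limit on the fold, 22 of the 35 (62.9%) had an adjusted p under 0.05, 6 higher and 16 lower in Hint1-/- MASMCs, against 21.5% of all genes. WT and Hint1-/- samples were fully apart for 19 of the 35 (54.3%), against 23.0% of all genes. Collagen messages are abundant and abundant genes pass such a test at smaller folds, so the comparison was repeated among genes averaging 1000 counts or more, where 15 of 18 collagen genes (83.3%) had an adjusted p under 0.05, against 29.3% of the genes at that level. This lower limit does not match the sets in level, and Col1a1 averaged 72634 counts. The median log2 fold change of the 35 genes was −0.17, beside 0.00 over all genes tested. These counts describe genes that passed the filter, and no test was made of the set.

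**Figure D1:**
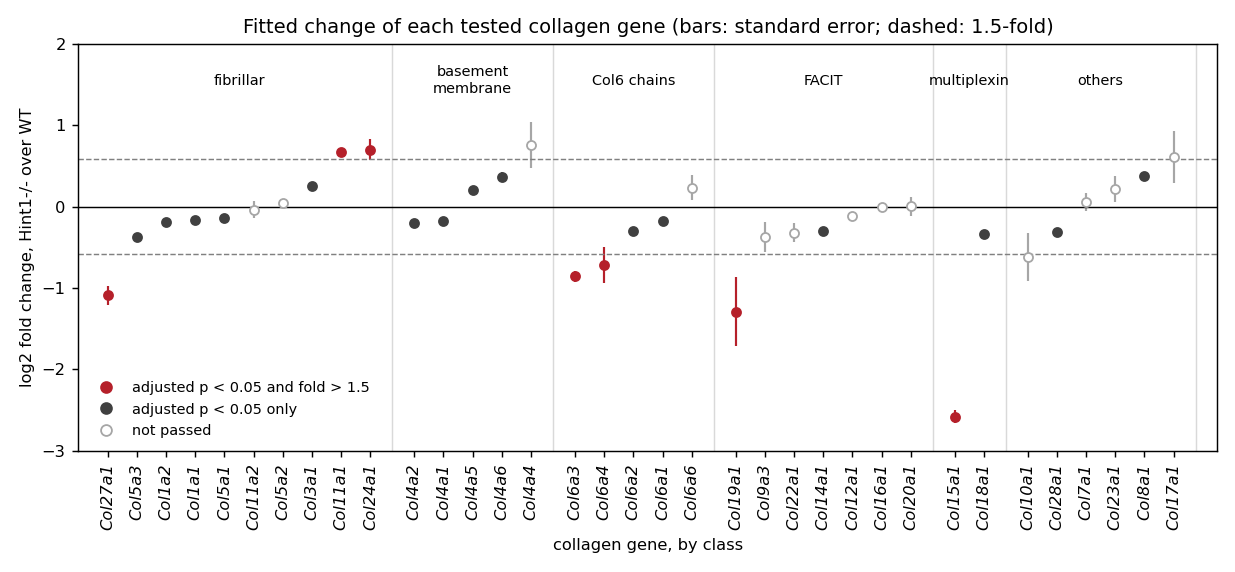
Fitted log2 fold change of Hint1-/- over WT MASMCs for the 35 tested collagen genes, by class. Bars are standard errors, filled red points are changed genes, filled dark points have an adjusted p under 0.05 only, open points did not pass, and dashed lines mark a 1.5-fold change. Col15a1 lies lowest at −2.58, and most other filled points lie within the dashed lines.

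Among the fibrillar genes, 8 of 10 (80%) had an adjusted p under 0.05, 3 of them higher and 5 lower. Over all genes this share was 21.5%. Of the 10, 3 (30%) were changed, against 2.83% of all genes. The median log2 fold change of the 10 was −0.09. The class held the most abundant collagen messages. Per kilobase of exons, levels in WT MASMCs ran from 564 CPM for Col1a1 to 0.381 CPM for Col24a1.

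Col1a1, which encodes the main chain of type I collagen, had 82758, 75788, 78487, and 71318 counts in WT samples and 69947, 65739, 64493, and 72545 in Hint1-/- samples. The highest Hint1-/- sample lay above the lowest WT sample. Col1a1 averaged 3701 ± 223 CPM over the 4 WT and 3270 ± 175 CPM over the 4 Hint1-/- samples (± SD), and the fitted log2 difference was −0.17 (SE 0.045, adjusted p = 0.0126). Its adjusted p rose above 0.05 without WT replicate 1 (0.0561) and without Hint1-/- replicate 2 (0.0517). Col1a2, the partner chain, had 68019, 65541, 64780, and 60760 counts in WT samples and 58599, 55524, 53321, and 57650 in Hint1-/- samples. Here all 4 Hint1-/- samples were under the lowest WT sample. The mean of Col1a2 was 3110 ± 139 CPM for WT against 2699 ± 108 CPM for Hint1-/- MASMCs (SD, n = 4 each), with a fitted log2 fold change, Hint1-/- over WT, at −0.19 (SE 0.039, adjusted p = 0.0015).

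Type I fell while type III rose. Col3a1, whose product forms fibers with type I, had 25873, 26051, 24816, and 25072 counts in WT samples and 29766, 30827, 27746, and 32148 in Hint1-/- samples, without overlap, and its log2 fold change was 0.25. As a percentage of all collagen counts, the type I genes took 50.9 ± 0.885 in WT and 48.2 ± 0.414 in Hint1-/- samples, and Col3a1 took 9.14 ± 0.288 and 11.7 ± 0.446 (SD, n = 4 each). Both shares were apart in all samples of the genotypes.

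Type V and XI chains sit inside type I fibers and limit their width. Col5a1 had a log2 fold change of −0.14 and Col5a3 of −0.37, both with an adjusted p under 0.05, and Col5a2 had one of 0.05 that did not pass. Col11a1 rose. It had 903, 868, 884, and 832 counts in WT samples and 1359, 1348, 1382, and 1428 in Hint1-/- samples, a wide gap between tight groups. In CPM, Col11a1 stood at 41.9 ± 1.36 for WT and 66.2 ± 1.72 for Hint1-/- (mean ± SD, n = 4 each), and the fitted log2 difference was 0.67 (SE 0.038, adjusted p = 2.6e-10). Col11a2, its partner chain in cartilage, was between 97 and 138 counts in all samples, with a log2 fold change of −0.04 that did not pass.

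Col24a1 and Col27a1 encode minor fibrillar chains known from bone and cartilage, and they moved in opposite directions. Col24a1 had 48, 57, 72, and 65 counts in WT samples and 101, 88, 103, and 99 in Hint1-/- samples, all of them above the WT samples. Col24a1 averaged 2.91 ± 0.498 CPM over the 4 WT and 4.69 ± 0.324 CPM over the 4 Hint1-/- samples (± SD), with a fitted log2 fold change, Hint1-/- over WT, at 0.70 (SE 0.13, adjusted p = 6.2e-04). Col27a1 had 136, 141, 124, and 166 counts in WT samples and 68, 58, 69, and 69 in Hint1-/- samples, and the groups did not overlap. The mean of Col27a1 was 6.81 ± 0.861 CPM for WT against 3.17 ± 0.258 CPM for Hint1-/- MASMCs (SD, n = 4 each), and the fitted log2 difference was −1.09 (SE 0.12, adjusted p = 1.4e-06). Of the 3 chondrocyte markers with enough counts to test, Comp and Sox9 had log2 fold changes of 0.79 and 0.48, and Acan, which passed the filter on low counts only through its WT samples, had one of −1.84. Their part in the values of these genes was not tested.

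**Figure D2:**
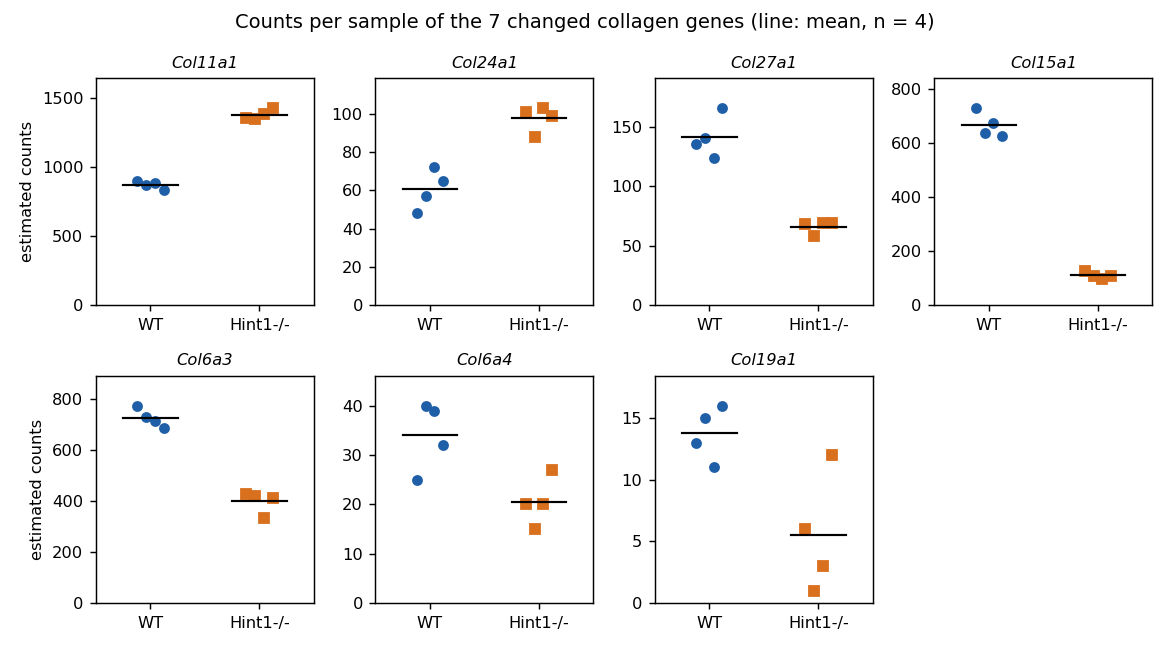
Estimated counts of the 7 changed collagen genes in each sample, with each panel's vertical axis starting at 0 and a line at the mean of 4 samples. Circles are WT and squares Hint1-/- samples. The genotypes overlap only for Col6a4 and Col19a1, which had at most 40 counts in any sample.

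The type IV pairs on chromosomes 8 and X moved in opposite directions. Of 5 tested genes, 2 were lower and 2 higher with an adjusted p under 0.05 (80%, against 21.5% of all genes). None of the 5 was changed at 1.5-fold. Their median log2 fold change was 0.20, which became 0.01 when at least 10 counts were asked of every sample, because Col4a4 then left the class.

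Col4a1 and Col4a2, the pair on chromosome 8, encode the chains of the network found in nearly all basement membranes. Col4a1 had 13249, 12818, 12606, and 12123 counts in WT samples and 11537, 10924, 10464, and 11660 in Hint1-/- samples. In CPM, Col4a1 stood at 610 ± 21.4 for WT and 535 ± 25.9 for Hint1-/- (mean ± SD, n = 4 each), with a fitted log2 fold change, Hint1-/- over WT, at −0.18 (SE 0.039, adjusted p = 0.0026). Col4a2 had 10379, 9782, 9661, and 9657 counts in WT samples and 8755, 8233, 8177, and 8878 in Hint1-/- samples. For both genes all 4 Hint1-/- samples were under the lowest WT sample. Col4a2 averaged 474 ± 15.8 CPM over the 4 WT and 408 ± 16.6 CPM over the 4 Hint1-/- samples (± SD), and the fitted log2 difference was −0.20 (SE 0.037, adjusted p = 5.0e-04).

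Col4a5 and Col4a6, the pair on the X chromosome, encode the chains of a network found around smooth muscle, and for both all 4 Hint1-/- samples were above the highest WT sample. Col4a5 had 2003, 2017, 1969, and 1961 counts in WT samples and 2266, 2213, 2203, and 2377 in Hint1-/- samples, a log2 fold change of 0.20. Col4a6 had 429, 411, 440, and 417 counts in WT samples and 599, 519, 489, and 565 in Hint1-/- samples, a log2 fold change of 0.37.

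Col4a3 and Col4a4, the pair on chromosome 1, are known from the filter of the kidney and were near the limit of detection. Col4a4 had 14, 16, 16, and 7 counts in WT samples and 30, 21, 23, and 15 in Hint1-/- samples. The groups overlapped, and the log2 fold change of 0.75 (SE 0.28) had an adjusted p of 0.0651, which fell to 0.0374 without Hint1-/- replicate 4. Col4a3 was removed by the filter on low counts. Its counts were 4, 5, 3, and 2 in WT samples and 16, 7, 7, and 11 in Hint1-/- samples, without overlap, and the ratio of the summed counts was 2.93 (95% exact interval 1.56 to 5.81, counting error only). Tested without the filter, it had a log2 fold change of 1.53 (SE 0.46) and an adjusted p of 0.0213.

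**Figure D3:**
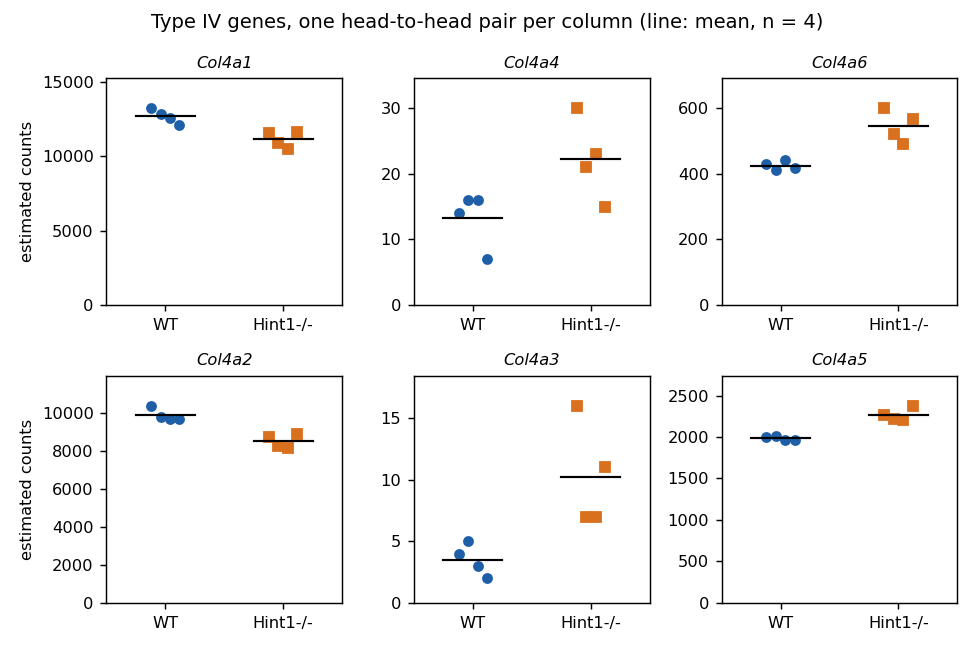
Estimated counts of the 6 type IV genes in each sample, with the genes of a head-to-head pair above each other, vertical axes from 0, and a line at the mean of 4 samples. In the left column all Hint1-/- samples (squares) lie below the WT samples (circles), in the right column all lie above them, and in the middle column counts reach at most 30.

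Each of the 4 Col6 chains with an adjusted p under 0.05, out of 5 tested (80%), was lower in Hint1-/- MASMCs. The share over all genes was 21.5%. Of the 5, 2 (40%) were changed, against 2.83% of all genes. The median log2 fold change of the 5 was −0.29. Col6a1 and Col6a2 encode chains present in every type VI molecule. Col6a1 had 7792, 7604, 7655, and 6956 counts in WT samples and 6788, 6357, 6472, and 6657 in Hint1-/- samples. The mean of Col6a1 was 360 ± 17.3 CPM for WT against 315 ± 8.81 CPM for Hint1-/- MASMCs (SD, n = 4 each), with a fitted log2 fold change, Hint1-/- over WT, at −0.18 (SE 0.037, adjusted p = 0.0017). Col6a2 had 4932, 4639, 4726, and 4522 counts in WT samples and 3979, 3494, 3718, and 4039 in Hint1-/- samples. In CPM, Col6a2 stood at 226 ± 7.84 for WT and 183 ± 11.9 for Hint1-/- (mean ± SD, n = 4 each), and the fitted log2 difference was −0.29 (SE 0.043, adjusted p = 5.0e-05). For both genes the genotypes did not overlap.

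Col6a3 encodes the long chain that completes the usual type VI molecule, and it fell past the limit of 1.5-fold. It had 775, 731, 713, and 689 counts in WT samples and 429, 420, 335, and 411 in Hint1-/- samples, without overlap. Col6a3 averaged 34.9 ± 1.69 CPM over the 4 WT and 19.1 ± 2.04 CPM over the 4 Hint1-/- samples (± SD), with a fitted log2 fold change, Hint1-/- over WT, at −0.86 (SE 0.066, adjusted p = 2.3e-08).

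Col6a4, Col6a5, and Col6a6 encode chains that can take the place of the Col6a3 chain, and all of them were at low levels. Col6a4 had 25, 40, 39, and 32 counts in WT samples and 20, 15, 20, and 27 in Hint1-/- samples, with 1 Hint1-/- sample above the lowest WT sample. The mean of Col6a4 was 1.63 ± 0.336 CPM for WT against 0.983 ± 0.236 CPM for Hint1-/- MASMCs (SD, n = 4 each), and the fitted log2 difference was −0.72 (SE 0.22, adjusted p = 0.0261). That call was lost under DESeq2 (adjusted p = 0.0525) and without WT replicate 2 (0.0748), WT replicate 3 (0.0855), Hint1-/- replicate 1 (0.060), Hint1-/- replicate 2 (0.0903), or Hint1-/- replicate 3 (0.0579). Col6a6 was at 38 to 59 counts with a log2 fold change of 0.23 that did not pass, and Col6a5 was filtered out with 16 counts summed over WT and 23 over Hint1-/- samples.

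Of 7 FACIT genes tested, 2 (28.6%) had an adjusted p under 0.05, both lower, against 21.5% of all genes. Of the 7, 1 (14.3%) was changed, against 2.83% of all genes. That gene was Col19a1, which passed the filter on low counts mainly through its WT samples. The share of 14.3% is therefore not read as a result about the class. The median log2 fold change of the 7 was −0.30. Col14a1, which encodes a collagen on the surface of type I fibers, had 5755, 5931, 5456, and 4977 counts in WT samples and 4528, 4484, 4263, and 4555 in Hint1-/- samples, and the groups did not overlap. In CPM, Col14a1 stood at 266 ± 19.8 for WT and 214 ± 6.02 for Hint1-/- (mean ± SD, n = 4 each), with a fitted log2 fold change, Hint1-/- over WT, at −0.30 (SE 0.045, adjusted p = 6.7e-05). Col16a1 had 3461, 3341, 3496, and 3330 counts in WT samples and 3409, 3211, 3375, and 3536 in Hint1-/- samples, which were interleaved. Col16a1 averaged 164 ± 3.72 CPM over the 4 WT and 162 ± 6.38 CPM over the 4 Hint1-/- samples (± SD), and the fitted log2 difference was 0.00 (SE 0.035, adjusted p = 0.992).

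Col19a1, a rare FACIT collagen, had 13, 15, 11, and 16 counts in WT samples and 6, 1, 3, and 12 in Hint1-/- samples, with 1 Hint1-/- sample inside the WT range. It passed the filter mainly through its WT samples. The mean of Col19a1 was 0.660 ± 0.108 CPM for WT against 0.264 ± 0.230 CPM for Hint1-/- MASMCs (SD, n = 4 each), with a fitted log2 fold change, Hint1-/- over WT, at −1.29 (SE 0.42, adjusted p = 0.0357). The call was lost without WT replicate 1 (0.0617), 2 (0.0681), or 4 (0.0785) and without Hint1-/- replicate 1 (0.0672), 2 (0.109), or 3 (0.104). The log2 fold changes of Col12a1 (−0.12), Col22a1 (−0.32), Col9a3 (−0.38), and Col20a1 (0.00) did not pass. Col12a1 had an adjusted p of 0.0958, which fell to 0.0111 without Hint1-/- replicate 4, and Col22a1 had one of 0.0553, which fell to 0.0407 without WT replicate 3 and to 0.0308 without Hint1-/- replicate 4. Col9a2 was filtered out with 2 counts summed over WT and 0 over Hint1-/- samples, where a count of 0 allows up to 3.

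Both multiplexins were lower, and Col15a1 had the largest fold change of the collagen genes tested. It encodes the core of a proteoglycan that links basement membranes to nearby fibers. Its counts were 728, 635, 672, and 626 in WT samples and 128, 108, 96, and 109 in Hint1-/- samples, so the highest Hint1-/- sample lay far below the lowest WT sample. In CPM, Col15a1 stood at 31.9 ± 2.16 for WT and 5.29 ± 0.625 for Hint1-/- (mean ± SD, n = 4 each), which is 16.6% of WT, and the fitted log2 difference was −2.58 (SE 0.080, adjusted p = 3.6e-14). Leaving out single samples kept this log2 fold change between −2.66 and −2.52. Among the Schwann cell markers, 5 of 7 also fell, with log2 fold changes of −2.53 for Sox10, −2.73 for Ngfr, −2.28 for Foxd3, −1.91 for Cdh19, and −1.13 for Erbb3. S100b (0.03) and Mbp (−0.17) did not pass. The part of these markers in the lower level of Col15a1 was not tested. Col18a1, whose product carries heparan sulfate and yields the fragment endostatin, had 3352, 3312, 3216, and 2949 counts in WT samples and 2609, 2552, 2330, and 2632 in Hint1-/- samples, without overlap. Col18a1 averaged 154 ± 8.49 CPM over the 4 WT and 121 ± 6.42 CPM over the 4 Hint1-/- samples (± SD), with a fitted log2 fold change, Hint1-/- over WT, at −0.33 (SE 0.045, adjusted p = 2.3e-05).

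**Figure D4:**
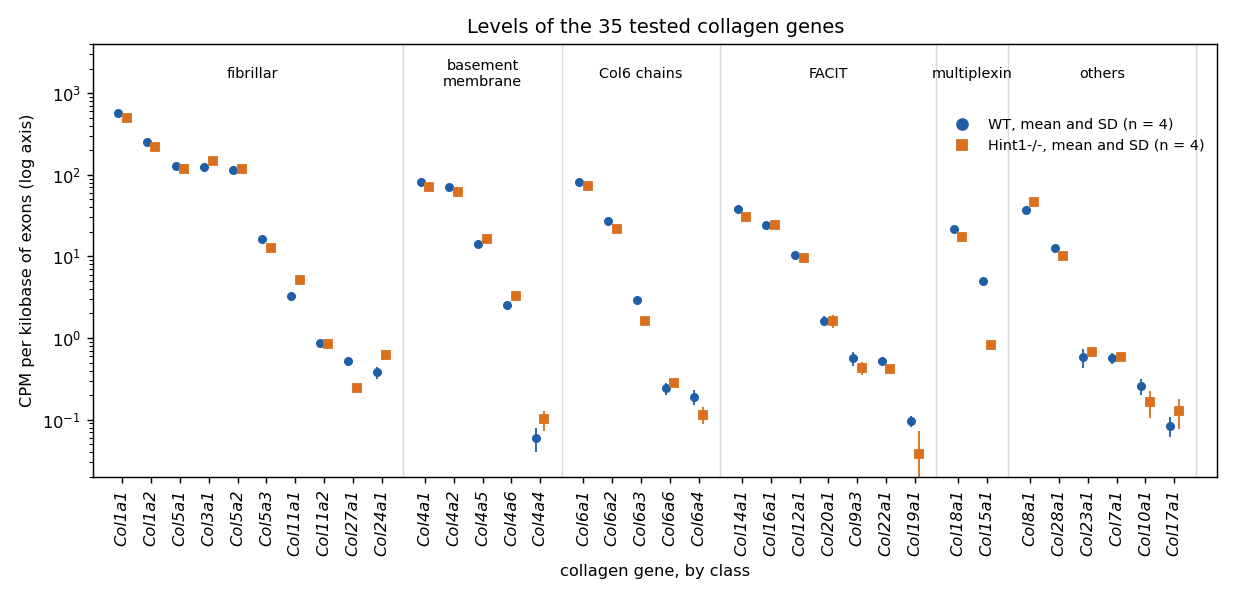
Mean level of the 35 tested collagen genes in WT (circles) and Hint1-/- MASMCs (squares), in CPM per kilobase of exons on a log axis, by class and in falling order of WT level. Bars are SDs of 4 samples. Col1a1 and Col1a2 lie above all other genes, and the largest gap between the genotypes is that of Col15a1.

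The remaining 10 genes hold short network chains, transmembrane chains, the anchoring fibril chain, and 2 that were not placed in these. Of 6 tested, 1 was higher and 1 lower with an adjusted p under 0.05 (33.3%, against 21.5% of all genes). None of the 6 was changed. Their median log2 fold change was 0.14, which became 0.03 without the filter on low counts. Col8a1, a short network chain made in vessel walls, had 6239, 6382, 5648, and 5603 counts in WT samples and 7640, 7510, 7712, and 7836 in Hint1-/- samples, all above the WT samples. The mean of Col8a1 was 287 ± 19.1 CPM for WT against 368 ± 6.68 CPM for Hint1-/- MASMCs (SD, n = 4 each), and the fitted log2 difference was 0.37 (SE 0.040, adjusted p = 1.5e-06). Its partner chain Col8a2 was filtered out, with 5 counts summed over WT and 5 over Hint1-/- samples. Col28a1, which is known from the basement membranes around Schwann cells, had 1368, 1285, 1249, and 1207 counts in WT samples and 1002, 1071, 987, and 1023 in Hint1-/- samples, without overlap. In CPM, Col28a1 stood at 61.3 ± 3.18 for WT and 49.0 ± 1.73 for Hint1-/- (mean ± SD, n = 4 each), with a fitted log2 fold change, Hint1-/- over WT, at −0.31 (SE 0.043, adjusted p = 3.1e-05). The summed levels of the Schwann cell, macrophage, and smooth muscle markers were lower in the same samples. The median log2 fold changes of the tested markers were −1.91, −0.32, and −0.43 in that order. The summed levels of the fibroblast and chondrocyte markers were higher, and those of the endothelial markers overlapped between the genotypes. The part of these markers in the result for Col28a1 was not tested.

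Col7a1, the anchoring fibril chain, had a log2 fold change of 0.06, Col10a1 of −0.62, and the transmembrane chains Col17a1 and Col23a1 of 0.61 and 0.22, and none of them passed. Col10a1 and Col17a1 had at most 24 counts in any sample. Col23a1, the nearest collagen gene to Hint1, lies 3.28 Mb from it on chromosome 11. Col13a1, Col25a1, and Col26a1 were filtered out, with 1, 3, and 12 counts summed over WT and 3, 0, and 5 over Hint1-/- samples.

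All 42 collagen genes together took 1.34% ± 0.0493 of the counts in WT samples and 1.24% ± 0.050 in Hint1-/- samples (SD, n = 4 each). The ranges of 1.27% to 1.39% and 1.18% to 1.296% overlapped. Within the collagen counts the make-up by class was apart between the genotypes in every sample for all 6 classes, which are shares of 1 whole and so not independent. Fibrillar genes took 77.8% of collagen counts in WT and 78.3% in Hint1-/- samples, type IV genes 8.98% and 8.71%, and FACIT genes 4.52% and 4.33%. Col6 chains took 4.67% and 4.20%, multiplexins 1.39% and 1.02%, and the other genes 2.68% and 3.46%, most of which was Col8a1.

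**Figure D5:**
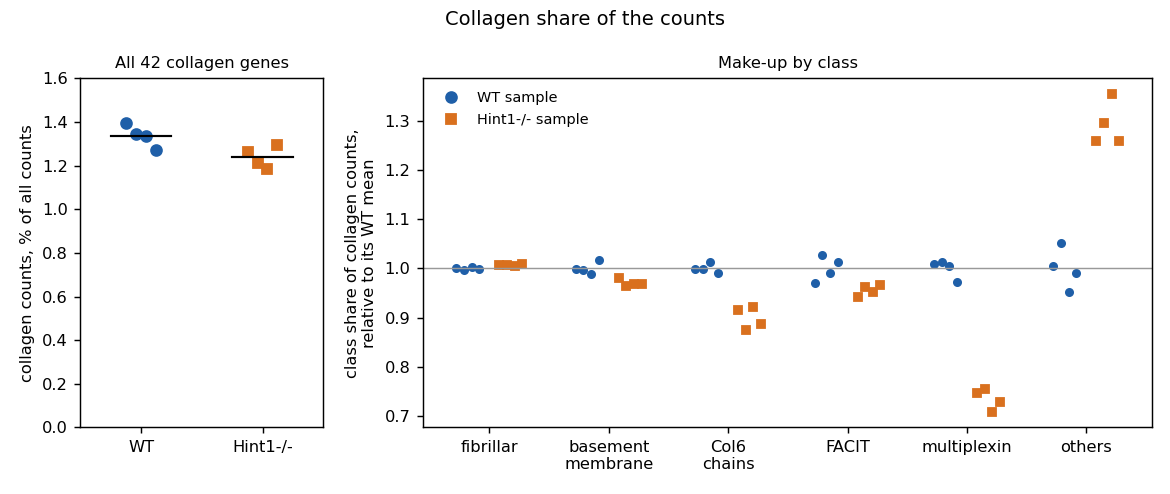
Left, counts of the 42 collagen genes as a percentage of all counts in each sample, with lines at the means of 4 samples. Right, each class's share of the collagen counts in each sample divided by the class's mean share in WT, on an axis that does not start at 0. Circles are WT and squares Hint1-/- samples. The totals overlap on the left, and on the right the genotypes are apart for each class, most for multiplexins and the others.

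Ratios of chains that share a molecule were taken within each sample, as counts per kilobase of exons. Col6a3 to Col6a1 was 0.0355 ± 0.00108 in WT and 0.0222 ± 0.00228 in Hint1-/- samples, so the ratio in Hint1-/- MASMCs was 0.626 of that in WT. Col6a1 to Col6a2 was 3.03 ± 0.0851 and 3.29 ± 0.136, and Col5a1 to Col5a2 was 1.14 ± 0.0190 and 0.997 ± 0.0300 (SD, n = 4 each). These 3 ratios did not overlap between the genotypes. Col1a1 to Col1a2 was 2.25 ± 0.0555 and 2.29 ± 0.0626, and Col4a1 to Col4a2 was 1.14 ± 0.0228 and 1.16 ± 0.0183, and both overlapped. With the length of the longest transcript in place of all exons, the ratio of Col1a1 to Col1a2 was 1.07 in WT samples, so the height of a ratio depends on the length chosen, while the quotient of its Hint1-/- and WT means does not.

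Among genes that fold, trim, crosslink, and bind collagen, 37 were tested. Of these, 17 (45.9%) had an adjusted p under 0.05, 13 higher and 4 lower, against 21.5% of all genes and 29.3% of genes averaging 1000 counts or more. The 37 genes were not limited to that level, so the 29.3% covers an unlike set. Only 1 of the 37 (2.70%) was changed, against 2.83% of all genes, and their median log2 fold change was 0.06. P4ha2, a subunit of the enzyme that hydroxylates proline in collagen chains, was the changed gene. It had 2111, 1867, 1999, and 1921 counts in WT samples and 3210, 2988, 2628, and 3150 in Hint1-/- samples, without overlap, and the fitted log2 difference was 0.61 (SE 0.054, adjusted p = 1.3e-07). This lay close to the fold limit and fell under it without WT replicate 2 (0.58) or Hint1-/- replicate 1 (0.58). Of 17 genes for folding, hydroxylation, and secretion, 8 were higher and 1 lower with an adjusted p under 0.05 (52.9%). Of 7 genes for propeptide removal, 2 were higher and 1 lower (42.9%), and of 5 crosslinking genes 2 were higher and 1 lower (60%). Of 8 collagen receptor genes, 2 (25%) had an adjusted p under 0.05, near the 21.5% of all genes, and none was changed. Itga2 was higher by 0.19 on the log2 scale and Itga11 had a log2 fold change of −0.34. These receptors are named after their values were seen. Among fibroblast markers Dcn and Lum had log2 fold changes of 0.83 and 0.88 and Dpt one of −0.79. Of the 8 smooth muscle markers, 6 were lower and 1 higher with an adjusted p under 0.05 (87.5%, against 21.5% of all genes). Cnn1, Myh11, and Des were changed, with log2 fold changes of −1.12, −1.54, and −0.61, and the one that was higher was Smtn, at 0.25, named after its value was seen.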

How the data were processed

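RNA-Seq was analysed for 4 WT and 4 Hint1-/- samples. Per the labels, mRNA was enriched with oligo(dT) beads. The study's methods name reads of 50 bases and mapping to mm10 with HISAT2, and the processing notes also name Bowtie2, RSEM 1.3.1, and DESeq2 1.4.5 without roles. The authors deposited estimated counts per gene symbol, not normalized and with up to 2 decimals. Values of 11 collagen genes were not all whole, as arises when a read is divided between genes or transcripts. Whether strand was used in counting is not given in the sources used here. The molecules sequenced carried no identifiers that the sources name, so intervals cover counting error only.

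Counts were rounded to whole numbers, filtered with filterByExpr, scaled by TMM, and compared with edgeR's quasi-likelihood test (glmQLFit, glmQLFTest; two-sided) with genotype as the only term and Benjamini-Hochberg adjustment over all 13535 genes tested. A gene was changed at an adjusted p under 0.05 and a fold change over 1.5. Log2 CPM used a prior count of 2. Ratios of small summed counts carry 95% exact (Clopper-Pearson) intervals, and a count of 0 was read as up to 3 counts. Lengths and positions came from GENCODE M21 (GRCm38) by symbol for all 42 genes, and promoter windows from RefSeq (GRCm38.p6). The last bases of 32 of 36 windows were found in a transcript on the same strand and none on the opposite strand. Tests ran in edgeR 4.0.16 under R 4.3.3, with DESeq2 1.42.0 and limma 3.58.1 for alternatives and Python 3.11.15 for counts and motifs. The fit was tested on simulated data.

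Sequenced depth and the number of samples set the precision, and filterByExpr removed genes that did not reach about 10 counts in at least 4 samples. Full values are given for changed collagen genes and for the 2 of each class with the most counts per kilobase, a changed gene of another list is named, and other collagen genes are given by fold or counts. The collagen genes, classes, and lists of handling genes and cell type markers were chosen with earlier results of these data known, and some listed markers are not reported here. Alternatives were other size factors (RLE, upper quartile), library sizes without collagen genes, no filter, at least 10 counts in every sample, DESeq2, limma-voom, the replicate number as a block, and each sample left out in turn.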

Additional observations from a re-analysis of the deposited data

Results flagged for a closer look

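In each group of 4 samples, the gap between the most extreme sample and its nearest neighbour was divided by the range of the group, and groups over Dixon's critical value were set apart. Of 108 groups examined, 5 were over this limit, and chance sets apart about 1 in 20 groups, or 5.4 here. On the log2 CPM scale Hint1-/- replicate 2 was low for Col11a2 (gap over range 0.8671) and for Col27a1 (0.9224), WT replicate 1 was high for Col4a2 (0.8787), and WT replicate 4 was low for Col4a4 (0.8336). For the share of collagen counts taken by Col5a1, Hint1-/- replicate 2 was low (0.8716). Without Hint1-/- replicate 2 the log2 fold change of Col11a2 was 0.06 rather than −0.04, and neither value passed the test. The genotypes did not overlap for Col27a1 or Col4a2 with these samples included.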

How the results depend on the processing

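Over 16 alternatives, or 15 for Col10a1, Col17a1, Col19a1, and Col4a4, which the limit of 10 counts in every sample removed, 31 of the 35 tested collagen genes kept the direction of their log2 fold change, 29 kept the side of the adjusted p threshold, and 5 of the 7 changed genes kept both thresholds (Col11a1, Col24a1, Col27a1, Col15a1, and Col6a3). The count of changed genes was 6 to 8 under other settings and 5 to 8 with 1 sample left out. The count at an adjusted p under 0.05 was 21 to 24 and 19 to 25, and the median log2 fold change was −0.18 to −0.15 and −0.20 to −0.13. The direction turned only for genes near 0 that never passed the test. For Col16a1 the log2 fold change was −0.0004 with RLE size factors and with DESeq2, −0.0102 with upper-quartile normalization, −0.0024 with at least 10 counts in every sample, and −0.0207 to 0.0240 with 1 sample left out. For Col20a1 it was −0.0082 with upper-quartile normalization, −0.0004 with at least 10 counts, −0.0021 with limma-voom, and −0.1166 to 0.1082 with 1 sample left out. With 1 sample left out, Col11a2 ran from −0.0774 to 0.0572 and Col7a1 from −0.0397 to 0.1108. Col22a1 had an adjusted p of 0.0467 with upper-quartile normalization and 0.0481 with at least 10 counts in every sample, where fewer genes were tested.

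The number of changed handling genes was 1 in each setting that kept all samples and 0 to 2 with 1 sample left out. P4ha2 lost its call without WT replicate 2 or Hint1-/- replicate 1, and P4ha3, named after its values were seen, gained one without WT replicate 4 (log2 fold change −0.59).

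Leaving the 20 most abundant other genes out of the total moved the collagen share to 1.46% in WT and 1.35% in Hint1-/- samples. With the longest transcript as length, the ratio in WT and in Hint1-/- samples was 1.07 and 1.09 for Col1a1 to Col1a2, 0.794 and 0.696 for Col5a1 to Col5a2, 1.25 and 1.28 for Col4a1 to Col4a2, 1.91 and 2.07 for Col6a1 to Col6a2, and 0.0393 and 0.0246 for Col6a3 to Col6a1. The ratio of Col8a1 to Col8a2 was not formed because Col8a2 was at 0 to 2 counts.

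Same-numbered WT and Hint1-/- samples shared little, with correlations of their deviations of −0.045 to 0.081, and 2 of the 4 WT samples correlated best with their own number, so the replicate numbers were not taken to pair the samples. With the replicate number as a block, 8 collagen genes were changed and 24 had an adjusted p under 0.05, since Col4a4 (0.0404) and Col12a1 (0.0224) then passed. Depth limited the low genes, as Col6a4, Col19a1, Col4a3, and Col4a4 had at most 40 counts in any sample.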
